A study of Caenorhabditis elegans with 6 samples.

Results

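The solvent was compared with water on 4 arrays of whole worms, out of the 6 arrays of the series. The 4 were 2 of animals kept in water and 2 of animals kept in 0.4% dimethyl sulfoxide (DMSO). All 29317 probe sets on the arrays were compared. The animals of both groups were wild-type *Caenorhabditis elegans* of the strain N2, grown at 20 °C from eggs synchronized by bleaching, and the labels call all of them young adults, 3 days after hatching. DMSO was given in S medium for 48 h, beginning 16 to 18 h after hatching at the first larval stage, and is the vehicle in which the remaining group of the series received the flavone baicalein. The labels do not say whether the water animals were kept in the same medium. The 2 arrays of a group are labelled as independent trials 1 and 2. Nothing more is said of the cultures, so p-values measure the spread between these arrays, which may be technical.

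A hermaphrodite of this species passes through larval stages separated by molts, in each of which the epidermis lays down a new collagen cuticle beneath the old one. Over the same period the germ line proliferates, makes sperm in the last larval stage, and then turns to oocytes. Yolk made in the intestine, eggshell components and maternal messenger RNAs are hallmarks of the egg-laying adult, while precuticle matrix proteins, hedgehog-related proteins and many collagens come and go with each molt. DMSO is the usual solvent for compounds given to worms, and the comparison with water sets animals given the solvent against animals without it.

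Values are log2 RMA values, in which a step of 1 is a doubling. The median of all values, 1.51, is taken here as the background, and a fold change against a group mean under it is given as a lower bound ("at least"). In the limma fit, where a call needed an adjusted p under 0.05, 3183 probe sets were called higher in DMSO (10.9% of all) and 4890 lower (16.7%), and the arrays of the groups did not overlap at any of them, nor at 73.0% of all probe sets. The differences were large, since 885 of the higher calls and 1580 of the lower calls passed 4-fold. Gene names were at hand for 4957 probe sets only, those listed in one of 2 tables that the authors cut at p ≤ 0.05. The named genes, 4910 in all, held more higher calls than all probe sets (31.0% higher, 15.9% lower, 46.9% either way). This was most so for the probe sets named only in the table of baicalein against DMSO (39.0% higher, 13.5% lower, 52.5% either way), against 6.79% higher and 23.6% either way among the unnamed. Each count below is a count of named members. All named members of the oocyte and early embryo, meiosis, replication, nucleolar and nuclear pore lists were named only in the table of baicalein against DMSO. That table was selected with the same DMSO arrays, so these counts are not free of the selection. The median difference was 0.09 over all probe sets and 0.36 over the named genes.

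**Figure D1:**
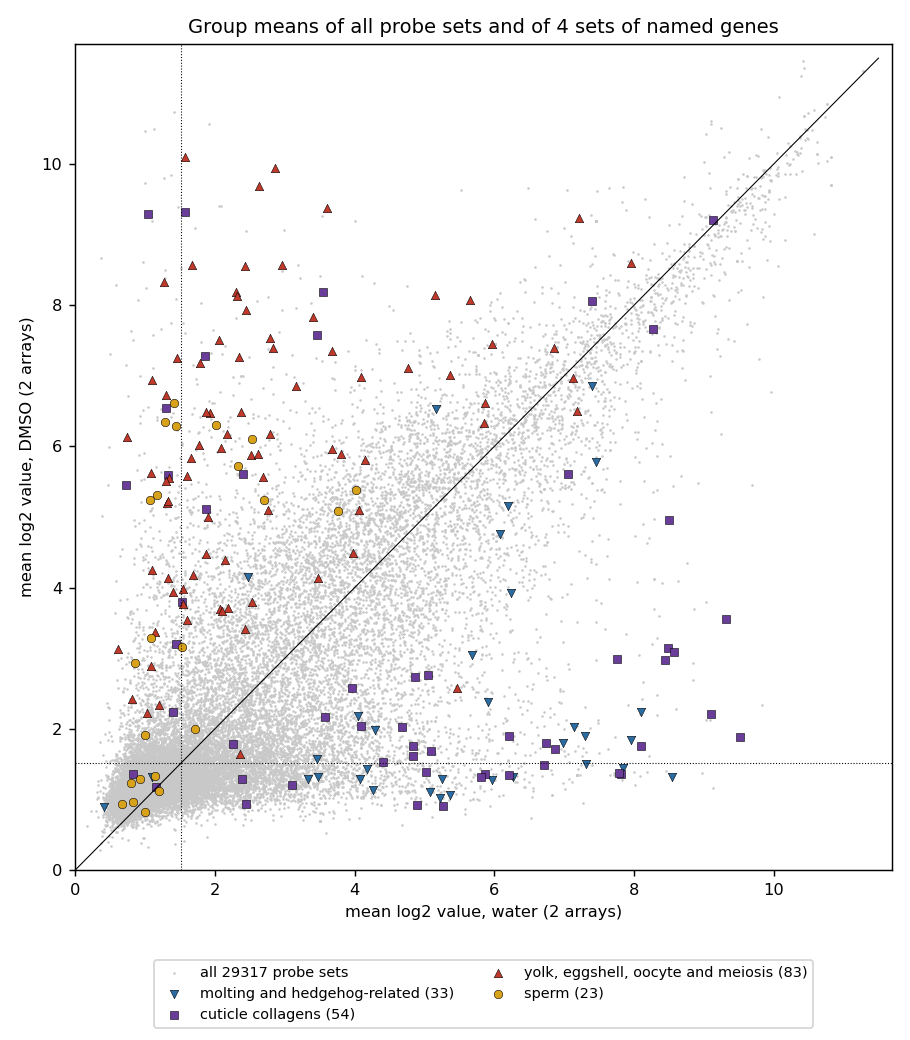
Mean log2 value of each of 29317 probe sets in water (horizontal) and DMSO (vertical), 2 arrays per group, with named members of yolk, eggshell, oocyte and meiosis lists (red triangles), sperm genes (yellow circles), molting and hedgehog-related genes (blue triangles) and cuticle collagens (purple squares). The solid line marks equal means and the dotted lines the median of all values, 1.51. Most germ line genes lie above the line at low water values, most molting genes lie at the bottom right, and collagens lie in both corners.

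The labelled stage was checked against stage genes first. On the water arrays the median of the 13 named eggshell genes was 2.63 and 2.18, and that of the 40 oocyte and early embryo regulators was 3.08 and 2.45. On the DMSO arrays these medians were 6.50 and 6.44, and 6.89 and 6.92. The yolk genes *vit-1* and *vit-2*, the only named members of their family, stood at a median of 1.26 and 1.59 on the water arrays, at the background, and of 9.25 and 9.18 on the DMSO arrays. Against that, the 17 molting and apical matrix genes had a median of 6.10 and 6.16 on the water arrays and of 1.67 and 1.59 on the DMSO arrays. Markers of egg production were thus low and molting genes high in the water animals, which goes against the label of adults, whereas the DMSO animals held the adult markers. The stage of the animals and the solvent cannot be told apart in these data. In whole worms, fewer cells of a type and less RNA per cell cannot be told apart either.

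The genes that load the egg rose strongly. Of 13 named eggshell genes 10 were called higher and 2 lower, with a median difference of 4.44. *cpg-1*, which encodes a chondroitin proteoglycan of the eggshell, read 3.31 and 2.42 on the water arrays and 9.95 and 9.94 on the DMSO arrays (difference 7.08, SE 0.30, adjusted p = 2.32e-05). *chs-1*, the chitin synthase of the eggshell, was at 2.11 and 1.76 in water and 6.50 and 6.44 in DMSO, a 23.2-fold higher level. The fertilization genes *egg-1* and *egg-4* rose by 4.91 (SE 0.27, adjusted p = 5.99e-05) and by 5.46 (SE 0.23, adjusted p = 2.30e-05). All DMSO arrays were far above the water arrays in these genes, and 12 of the 13 members were named only in the table of baicalein against DMSO. *gfat-2*, a member of the enzyme family that makes the amino sugar precursor of chitin, went the same way from 2.04 and 1.39 in water to 9.01 and 9.19 in DMSO (167-fold). The 2 members called lower were *cpg-7*, at 5.60 and 5.34 in water and 3.20 and 1.96 in DMSO (difference -2.89, SE 0.65, adjusted p = 0.0173), and *cpg-22* (difference -0.73, SE 0.17, adjusted p = 0.0212). Both calls turn on single arrays. The adjusted p of *cpg-7* was 0.116 without the second DMSO array, 0.0943 without the first water array and 0.0729 without the second water array, and that of *cpg-22* was 0.105 without the second DMSO array, 0.125 without the first water array and 0.114 without the second water array.

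Among 40 oocyte and early embryo regulators 35 rose, none fell, and the median difference was 3.32. *puf-5*, a Pumilio-family RNA-binding protein of late oocytes, read 1.88 and 1.47 on the water arrays and 8.65 and 8.50 on the DMSO arrays (difference 6.90, SE 0.20, adjusted p = 1.02e-05), which makes it 119.7-fold higher. The KH-domain translational repressor *gld-1*, which directs germ cells into oogenesis, was at 2.62 and 2.02 in water and 8.13 and 8.13 in DMSO (difference 5.81, SE 0.24, adjusted p = 2.21e-05). The Y-box protein gene *cey-3* read 2.43 and 2.16 in water and 8.19 and 8.18 in DMSO, and *mex-1*, which encodes a CCCH zinc finger protein of the early embryo, 2.90 and 2.67 in water and 7.59 and 7.48 in DMSO. Both DMSO arrays lay more than 4 log2 units above both water arrays in each of these genes. *rnp-8*, whose product works with a poly(A) polymerase in oogenesis, rose 42.3-fold. The 5 members that were not called included *lin-41* and *larp-1*, with differences of 0.48 and 0.54.

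For the machinery of the meiotic nucleus, all 28 named meiosis genes were called higher (median 2.35). All 28 were named only in the table of baicalein against DMSO, which was selected with the same DMSO arrays. Of all probe sets named only there, 39.0% were called higher. *plk-3*, a polo-like kinase gene, was at background in water with 1.18 and 1.43 and at 6.75 and 6.72 in DMSO, at least 37.3-fold higher (difference 5.43, SE 0.26, adjusted p = 3.45e-05). *sun-1*, whose product in the nuclear envelope moves chromosomes to their partners, read 1.30 and 1.35 on the water arrays and 5.29 and 5.18 on the DMSO arrays (difference 3.91, SE 0.17, adjusted p = 2.60e-05), at least 13.2-fold higher. The zinc finger proteins ZIM-1 and ZIM-2 bind the pairing centres of autosomes, and their genes read 1.32 and 1.88 in water and 5.55 and 5.62 in DMSO and 1.61 and 1.71 in water and 5.82 and 5.86 in DMSO. *xnd-1*, a factor for crossovers on the X chromosome, rose 16.1-fold (difference 4.01, SE 0.24, adjusted p = 8.10e-05). The differences ran from 0.75 to 5.84 over the list.

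DNA replication and cell division genes rose as well. In water the medians of the 32 replication genes were 3.20 and 3.18, and 30 of them were called higher and none lower (median difference 2.03). The helicase subunit *mcm-7* read 3.57 and 3.59 on the water arrays and 5.94 and 5.91 on the DMSO arrays (difference 2.34, SE 0.16, adjusted p = 1.28e-04). *cdc-7*, the kinase that fires replication origins, was at 2.32 and 2.26 in water and 6.12 and 6.02 in DMSO, and the GINS subunit *psf-1* at 3.75 and 4.13 in water and 6.82 and 6.72 in DMSO. DNA ligase *lig-1* (difference 2.55, SE 0.18, adjusted p = 1.54e-04) and *mcm-10* (difference 2.33, SE 0.18, adjusted p = 1.98e-04) were close to background in water. Of 59 cell division and polarity genes, 48 were called higher and 2 lower. The B-type cyclins *cyb-1* and *cyb-3* rose 12.3-fold and 11.2-fold, with *cyb-3* at 4.70 and 4.30 in water and 7.98 and 7.99 in DMSO. *ani-2*, an anillin of the germ line syncytium, rose 23.5-fold, the cytokinesis regulators *cyk-4* and *ect-2* 7.84-fold and 5.62-fold. Against the rest, the microtubule-binding CLASP *cls-1* fell from 6.03 and 6.35 to 3.90 and 3.59 (difference -2.45, SE 0.27, adjusted p = 9.01e-04) and the spindle-positioning regulator *gpr-2* from 4.32 and 4.12 to 1.93 and 2.09 (difference -2.21, SE 0.17, adjusted p = 2.27e-04).

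**Figure D2:**
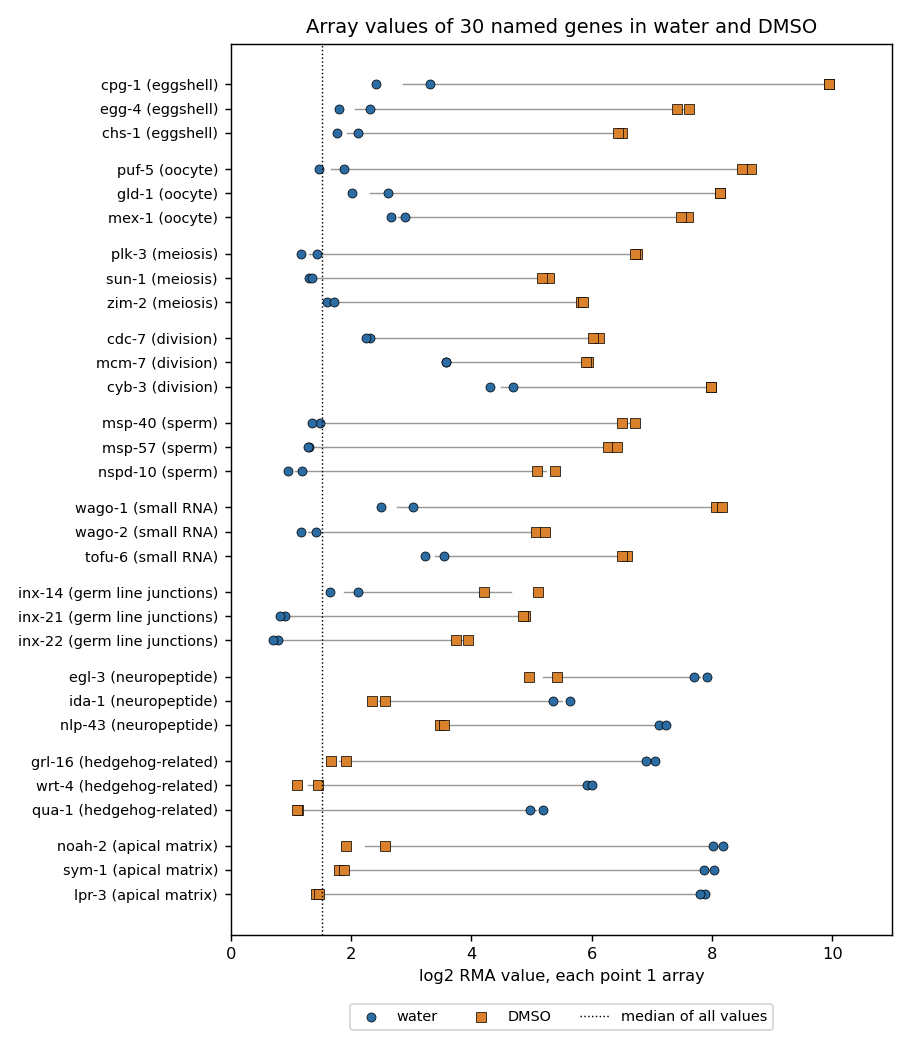
log2 RMA values of 30 genes on the 2 water arrays (circles) and the 2 DMSO arrays (squares), with a line between the group means and the median of all values, 1.51, as a dotted line. In the 21 genes of germ line and egg groups both DMSO arrays lie above both water arrays, and in the 9 neuropeptide, hedgehog-related and matrix genes beneath both.

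Sperm genes were split. Of 23 named, 14 were called higher, none lower, and the other 9 were not called. The major sperm protein genes *msp-40*, *msp-45*, *msp-57* and *msp-81* were at or near background in water, with *msp-40* at 1.48 and 1.35, and reached 6.51 and 6.72 in DMSO (at least 34.3-fold higher, difference 5.20, SE 0.20, adjusted p = 1.73e-05). For *msp-57* the values were 1.29 and 1.29 in water and 6.27 and 6.41 in DMSO, and for *nspd-10*, which belongs to a family of nematode-specific peptides, 0.95 and 1.19 in water and 5.09 and 5.39 in DMSO. The msp genes are near-identical copies, so that their probe sets can read each other's transcripts and are not independent. *gsp-4*, *spe-36*, *spe-46* and *spe-19*, which also serve spermatogenesis, differed by -0.17, 0.14, 0.19 and 0.26, with all values near or under the background. The median over the 23 was 1.63.

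Small RNA genes rose too, and 29 of 35 named Argonaute and small RNA genes were called higher (median 1.65). *wago-1*, a germ line Argonaute that loads secondary small RNAs, read 3.03 and 2.50 on the water arrays and 8.06 and 8.17 on the DMSO arrays (difference 5.35, SE 0.30, adjusted p = 6.61e-05). *wago-2* stood at 1.41 and 1.16 in water and 5.08 and 5.22 in DMSO and *wago-4* at 2.78 and 2.81 in water and 6.09 and 5.71 in DMSO. Of the genes needed to make piRNAs, *tofu-2* rose 12.1-fold and *tofu-6* 8.88-fold. The 2 members that fell were *rsd-3*, which is needed for the spread of RNA interference (6.41 and 6.42 in water and 5.54 and 5.51 in DMSO, adjusted p = 0.00653 with all arrays and 0.0544 without the first water array and 0.0547 without the second water array), and *alg-1*, the Argonaute of microRNAs (4.89 and 4.97 in water and 3.22 and 2.90 in DMSO). The call of *alg-1* (difference -1.87, SE 0.41, adjusted p = 0.0159) was lost when any one of the 4 arrays was left out, with adjusted p between 0.0684 and 0.106.

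Chromatin genes were called higher in 40 of 68 cases and lower in 4 (58.8% and 5.88%). All 40 were among the 63 named only in the table of baicalein against DMSO, where 39.0% of the probe sets were called higher. The number called higher depends on single arrays. The median difference was 1.16, and between 1.05 and 1.23 with 1 array left out. The centromeric histone H3 variant *hcp-3* rose from 3.82 and 3.54 to 7.23 and 6.69 (difference 3.28, SE 0.28, adjusted p = 3.16e-04) and the histone chaperone gene *asfl-1* 24.7-fold. *hmg-12*, a high mobility group gene, was at 4.30 and 4.24 in water and 8.24 and 8.39 in DMSO, and *lin-37*, a subunit of the DREAM repressor complex, at 2.34 and 2.35 in water and 4.24 and 4.22 in DMSO. The 4 members that fell were all histone genes: *his-41* (difference -1.56, SE 0.18, adjusted p = 0.00101), *his-71*, which encodes the replication-independent H3.3 (difference -1.32, SE 0.18, adjusted p = 0.00227), *his-39* (difference -1.28, SE 0.32, adjusted p = 0.0253) and *his-16* (difference -0.73, SE 0.17, adjusted p = 0.0183). Histone genes are near-identical copies, so these probe sets are uncertain. The adjusted p of *his-39* was 0.0540 without the first DMSO array, 0.149 without the second DMSO array and 0.157 without the first water array, and that of *his-16* was between 0.0647 and 0.136 when any one of the 4 arrays was left out. The number of chromatin genes called lower was 2 without the first DMSO, second DMSO or first water array.

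RNA processing and transport showed the same direction with smaller steps. Of 18 nucleolar and ribosome assembly genes 15 were called higher, of 32 spliceosome genes 19, and of 33 nuclear pore and transport genes 19, with medians of 0.99, 0.92 and 0.91. *rpoa-49*, an RNA polymerase I subunit, was at 2.88 and 3.15 in water and 5.15 and 5.28 in DMSO (difference 2.20, SE 0.20, adjusted p = 3.90e-04). The exosome subunit *exos-2* rose 5.58-fold, the importin alpha *ima-2* 7.42-fold and the nucleoporin *npp-18* 3.29-fold. The counts of these 3 lists depend on single arrays. Without the first water array they were 5, 7 and 11, without the second 8, 11 and 13, without the first DMSO array 9, 10 and 11, and without the second 10, 11 and 13, with medians between 0.85 and 1.08 over the 3 lists. Of 73 proteasome and ubiquitin genes 22 were called higher, 30.1%, near the 31.0% of all named genes, and that count was 12 and 13 without the first and the second water array and 14 and 15 without the first and the second DMSO array.

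**Figure D3:**
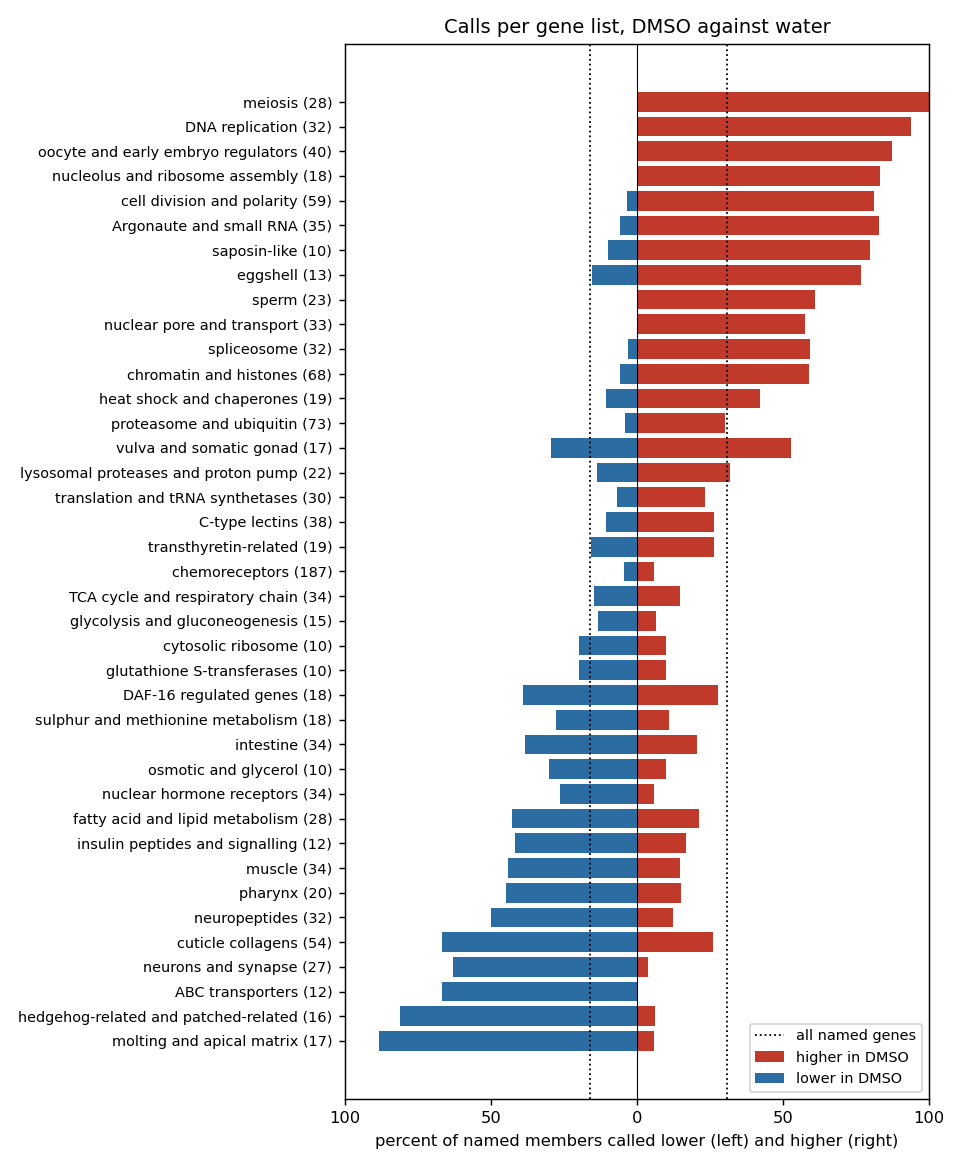
Percent of the named members of each list of 10 or more genes that were called higher (right, red) and lower (left, blue) in DMSO, with the number of named members in parentheses. Dotted lines give the same shares over all 4910 named genes, 31.0% higher and 15.9% lower. Germ line lists stand at the top and molting, hedgehog-related and nerve lists at the bottom.

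Some housekeeping proteins are encoded by pairs of genes of which one is used mainly by the germ line. Pairs of which the members moved apart were chosen after the values were seen. For ribosomal protein L11, *rpl-11.1* rose from 6.60 and 6.37 to 9.72 and 9.60 (difference 3.18, SE 0.17, adjusted p = 5.64e-05) while *rpl-11.2* went from 10.09 and 9.78 to 9.10 and 9.15 (difference -0.81, SE 0.18, adjusted p = 0.0166). For the flavoprotein of succinate dehydrogenase, *sdha-2* rose from 1.41 and 1.96 to 5.21 and 5.31 (difference 3.57, SE 0.51, adjusted p = 0.00265) and *sdha-1* fell from 6.63 and 6.89 to 5.59 and 5.40 (difference -1.26, SE 0.18, adjusted p = 0.00276). The core protein *ucr-2.3* of the cytochrome bc1 complex was at background in water (1.17 and 1.34) and at 3.83 and 3.97 in DMSO, where *ucr-2.2* read 7.03 and 6.90 in water and 6.38 and 6.22 in DMSO (difference -0.66, SE 0.19, adjusted p = 0.0401) and *ucr-2.1* 8.18 and 7.94 in water and 7.55 and 7.73 in DMSO (difference -0.42, SE 0.18, adjusted p = 0.134). ATP synthase subunit b gave 5.52 and 5.20 in water and 6.77 and 6.49 in DMSO for *asb-1* (difference 1.27, SE 0.22, adjusted p = 0.00576) and 8.68 and 8.62 in water and 8.39 and 8.42 in DMSO for *asb-2* (difference -0.24, SE 0.16, adjusted p = 0.313). The copies share sequence, so that their probe sets may not separate them fully. The adjusted p of *rpl-11.2* was 0.0827 without the first DMSO array, 0.0686 without the second DMSO array and 0.132 without the first water array, that of *ucr-2.2* was between 0.0926 and 0.215 when any one of the 4 arrays was left out, and that of *asb-1* was 0.0511 without the second water array. In the list of 34 TCA cycle and respiratory chain genes as a whole, 5 were called in each direction. That is 14.7% each way, under the shares of all named genes (31.0% higher and 15.9% lower). With the arrays centred on their medians, *cts-1*, *sdhb-1* and *ucr-2.2* were no longer called lower (adjusted p between 0.0694 and 0.106).

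Position in the genome was a further feature of the calls, examined after the values were seen. Of 3876 named protein-coding genes placed by RefSeq (WBcel235), 407 are on the X chromosome. There 15.5% were called higher and 38.3% lower, against 39.3% and 15.8% of the 3469 autosomal genes. X-linked genes made up 4.41% of the higher calls, 22.2% of the lower calls and 10.5% of the genes. Chromosome V, with 26.8% higher, lay between X and the other autosomes, which had 37.5% to 48.9%. None of the 28 meiosis genes, 32 replication genes, 23 sperm genes and 32 spliceosome genes is X-linked, against 10 of the 27 neuronal genes. Within the genes of the table of DMSO against water the higher share was alike, 16.8% on X and 19.2% on autosomes, and the lower share was 48.0% against 28.5%. The lower share was higher on X than on autosomes in each alternative fit run, with X between 24.6% and 45.3% and the autosomes between 10.9% and 18.7%. The higher share was lower on X in each of them, between 9.58% and 19.7% against 24.4% and 47.5%, and the 9.58% was without the second water array, with 39 X-linked genes called in place of 63. These shares are descriptions of the named genes and carry no test.

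**Figure D4:**
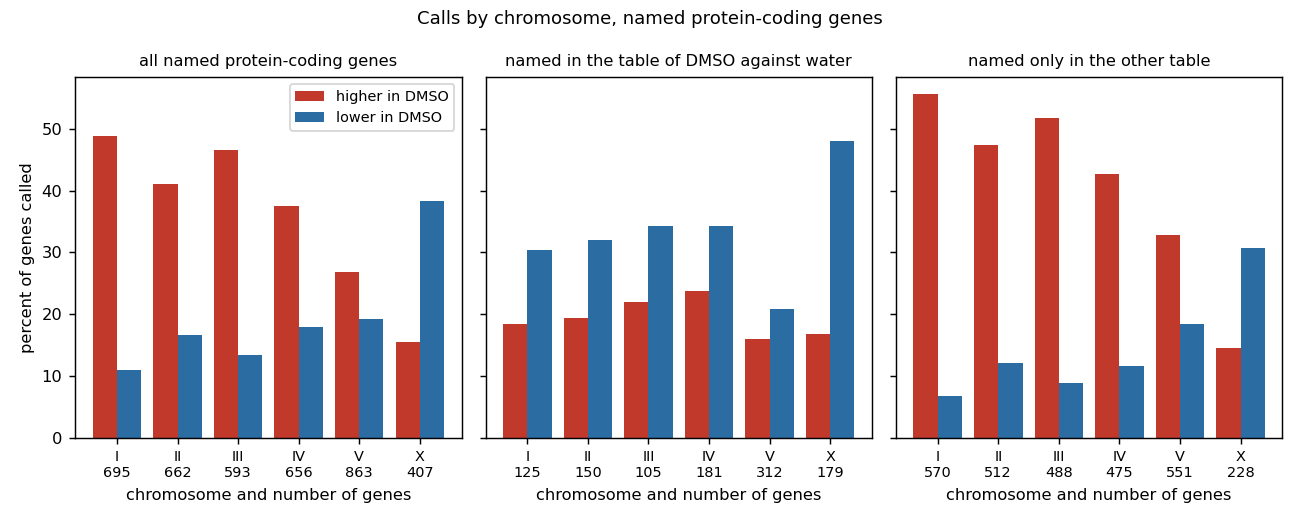
Percent of named protein-coding genes called higher (red) and lower (blue) in DMSO on each chromosome, with the number of genes under each name, for all of them (left) and for the genes named in each deposited table (middle and right). X holds the highest share of lower calls in each panel, 38.3% over all.

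Genes of the cuticle and its precursor matrix mostly fell. Of 17 molting and apical matrix genes 15 were called lower and 1 higher, with a median of -3.96. These shares were 88.2% and 5.88%, against 15.9% and 31.0% of all named genes. The table of DMSO against water, which was selected on this comparison, named 10 of the 17, and 9 of these were called lower. Of the 7 named only in the other table, 6 were called lower and 1 higher. *noah-2*, a zona pellucida domain protein of the precuticle, read 8.01 and 8.19 on the water arrays and 1.92 and 2.56 on the DMSO arrays (difference -5.86, SE 0.25, adjusted p = 2.33e-05). The lipocalin *lpr-3* fell from 7.88 and 7.79 to the background, 1.42 and 1.46 (at least 80.1-fold lower), and the leucine-rich repeat matrix gene *sym-1* from 7.87 and 8.04 to 1.79 and 1.88. The cuticlin *cut-1* was 42.5-fold lower (difference -5.41, SE 0.21, adjusted p = 1.84e-05), and the protease inhibitor *mlt-11* at least 27.0-fold lower. The exception was *egg-6*, a matrix protein of the excretory duct, at 2.43 and 2.52 in water and 4.22 and 4.07 in DMSO (difference 1.67, SE 0.17, adjusted p = 7.01e-04).

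Hedgehog-related proteins are secreted mainly by the epidermis, and patched-related proteins are their candidate receptors and membrane partners. In this group 13 of 16 named genes were called lower and 1 higher (median -2.48). The table of DMSO against water, which was selected on this comparison, named 10 of the 16, and 9 of these were called lower. Of the 6 named only in the other table, 4 were called lower and 1 higher. *grl-16* read 7.06 and 6.90 on the water arrays and 1.92 and 1.67 on the DMSO arrays (difference -5.18, SE 0.28, adjusted p = 5.84e-05). *wrt-4*, *grl-21* and *qua-1* were at 5.92 and 6.01, 5.43 and 5.01 and 4.97 and 5.19 in water and all were under the background in DMSO, which put *wrt-4* at least 21.9-fold and *qua-1* at least 11.8-fold lower. *grd-6* was at least 6.75-fold lower. The patched-related genes divided, with *ptr-8*, *ptr-14* and *ptr-23* lower (differences -2.31, -2.76 and -2.64) and *ptr-2* higher at 5.19 and 5.15 in water and 6.55 and 6.51 in DMSO. The call of *ptr-2* (difference 1.35, SE 0.26, adjusted p = 0.00894) was lost when any one of the 4 arrays was left out (adjusted p between 0.0552 and 0.0607).

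Cuticle collagens did not move as a block. Of 54 named, 36 were called lower, 14 higher and 4 not called, and the median was -2.21. *col-2* led the fall from 9.61 and 9.44 to 1.90 and 1.88 (difference -7.64, SE 0.17, adjusted p = 5.23e-06), and the body-shape collagens *dpy-13*, *dpy-5* and *dpy-8* fell 119-fold, 53.8-fold and at least 26.0-fold. At the other end, *col-119* read 1.08 and 1.00 in water and 9.32 and 9.26 in DMSO and *col-106* 1.52 and 1.64 in water and 9.30 and 9.33 in DMSO (difference 7.74, SE 0.16, adjusted p = 5.23e-06). *col-124* at 1.79 and 1.92 in water and 7.35 and 7.21 in DMSO and *col-81* at 1.13 and 1.46 in water and 6.65 and 6.45 in DMSO completed the strongest gains with *col-178*, which was at 0.74 and 0.73 in water and at 5.71 and 5.21 in DMSO. *col-42*, at 9.21 and 9.05 in water and 9.26 and 9.15 in DMSO, differed by 0.07 and was not called. The deposited table that supplied the name mattered. Of 32 collagens named in the table of DMSO against water 28 were called lower and 3 higher, and of 22 that only the other table named, 8 were called lower and 11 higher.

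**Figure D5:**
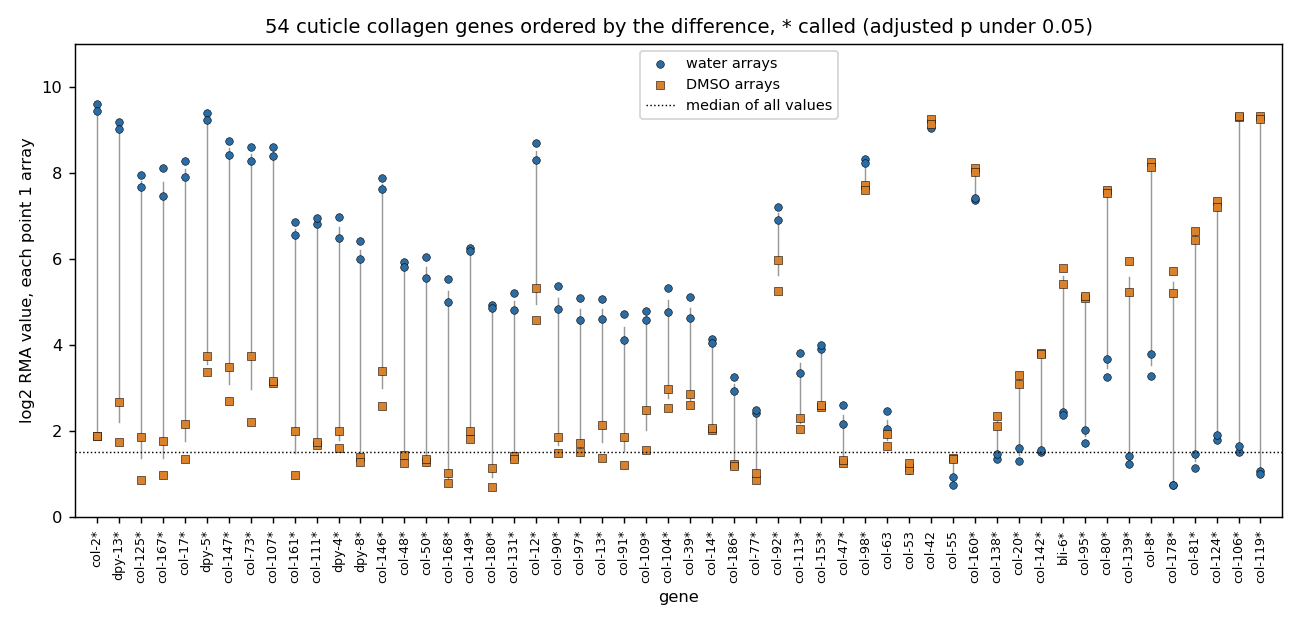
log2 RMA values of 54 cuticle collagen genes on the 2 water arrays (blue circles) and the 2 DMSO arrays (orange squares), ordered from the largest fall to the largest rise, with an asterisk for the 50 called and the median of all values, 1.51, as a dotted line. At the left the DMSO points and at the right the water points lie near that line.

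Of the 8 named genes of the collagen processing list, 6 were called lower and 1 higher, *txdc-15*. The 8 are not all enzymes that fold or crosslink collagen, since *dpy-21* is a member of the chromatin list too. Among the falls, the astacin *dpy-31* was not called with the arrays centred on their medians (adjusted p = 0.0693). The calls of *dpy-31* and *txdc-15* were also lost when any single water or DMSO array was left out. The differences then lay between -1.91 and -1.56 for *dpy-31* and between 0.83 and 0.85 for *txdc-15*. Dual oxidase *bli-3*, which crosslinks cuticle tyrosines, was at 3.76 and 4.02 in water and 2.50 and 1.92 in DMSO (difference -1.68, SE 0.24, adjusted p = 0.00263) and its maturation factor *doxa-1* at 3.67 and 3.70 in water and 1.59 and 1.63 in DMSO. The protein disulphide isomerases *pdi-2* and *pdi-6* read 9.44 and 9.26 in water and 7.67 and 7.36 in DMSO for *pdi-2* and 9.42 and 9.46 in water and 7.44 and 7.53 in DMSO for *pdi-6*. Of 6 genes of the heterochronic and seam cell list, the GATA factor *elt-3* (difference -1.44, SE 0.17, adjusted p = 0.00118) and *lin-29*, the zinc finger gene that drives the switch from larval to adult epidermis (difference -2.14, SE 0.35, adjusted p = 0.00484), were called lower, together with *vab-10* and *rnt-1*. Centring the arrays, quantile normalization and leaving out the second water or the second DMSO array each left 2 of these 4 calls. In the astacin family *toh-1* fell from 5.43 and 5.57 to 3.33 and 2.97 and *nas-20* rose from 1.35 and 1.71 to 6.19 and 5.90 (difference 4.51, SE 0.21, adjusted p = 3.12e-05).

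Genes of the gonad's somatic cells and of the junctions between soma and germ line went both ways, 9 of 17 higher and 5 lower. The innexins *inx-14*, *inx-21* and *inx-22*, which form gap junctions between germ cells and the sheath, were at background or near it in water. Their DMSO values were 5.10 and 4.21, 4.89 and 4.86 and 3.74 and 3.94 (at least 10.3-fold higher, difference 4.01, SE 0.16, adjusted p = 2.06e-05 for *inx-21*). The epidermal growth factor *lin-3* rose from 1.85 and 1.97 to 3.97 and 3.99. Basement membrane genes were among those that fell, with fibulin *fbl-1* at 2.61 and 2.94 in water and 1.37 and 1.70 in DMSO (difference -1.24, SE 0.20, adjusted p = 0.00478) and perlecan *unc-52* at 4.53 and 4.56 in water and 3.38 and 2.87 in DMSO. The number called lower was 1 without the second water array and 3 without the second DMSO array or under quantile normalization. The adjusted p of *unc-52* was 0.101 without the second DMSO array, 0.0792 without the first water array and 0.0831 without the second water array.

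The nervous system lists fell. Of 27 neuronal and synaptic genes 17 were called lower and 1 higher (median -1.08), and of 32 neuropeptide genes 16 lower and 4 higher (median -0.57). Enzymes that process neuropeptides were among them. The proprotein convertase *egl-3* read 7.69 and 7.91 on the water arrays and 4.96 and 5.42 on the DMSO arrays (difference -2.61, SE 0.22, adjusted p = 2.93e-04). The carboxypeptidase *egl-21* was at 7.56 and 7.49 in water and 5.34 and 5.43 in DMSO, and *ida-1*, a phosphatase-like protein of dense core vesicles, at 5.36 and 5.65 in water and 2.36 and 2.56 in DMSO (difference -3.05, SE 0.19, adjusted p = 8.89e-05). All 3 were lower on both DMSO arrays than on either water array, and so were the peptide genes *nlp-43*, at 7.13 and 7.24 in water and 3.48 and 3.54 in DMSO, *flp-15*, at 9.06 and 9.14 in water and 6.47 and 6.50 in DMSO, and *nlp-12*, at 8.57 and 8.45 in water and 5.82 and 5.91 in DMSO. At the synapse, the active zone gene *unc-10* and the GABA receptor *unc-49* fell 3.95-fold and 5.19-fold. *tdc-1*, the tyrosine decarboxylase that makes tyramine, was the member that rose, from 1.66 and 1.08 to 3.83 and 3.95. The neuropeptides that rose were *nlp-28*, an antimicrobial type of the epidermis (6.50 and 6.68 in water and 9.27 and 9.17 in DMSO), *flp-6* (difference 1.37, SE 0.22, adjusted p = 0.00426), *flp-28* (difference 1.24, SE 0.20, adjusted p = 0.00428) and *nlp-79*, whose call (difference 0.70, SE 0.19, adjusted p = 0.0365) was lost without any one of the 4 arrays (adjusted p between 0.0611 and 0.206). Without either water array 10 neuropeptide genes were called lower. Among 187 named chemoreceptors 11 were called higher and 8 lower, 5.88% and 4.28%, under the shares of all named genes. Both group means were under the background in 172 of the 187, and the number called higher was 3 without the first DMSO array, 0 without the second, 0 without the first water array and 1 without the second, and 22 without either baicalein array.

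In muscle 15 of 34 genes fell and 5 rose, 44.1% and 14.7%, against 15.9% and 31.0% of all named genes. Of the 14 named in the table of DMSO against water, which was selected on this comparison, 12 fell and 2 rose. Of the 20 named only in the other table, 3 fell and 3 rose. The attachment protein vinculin, *deb-1*, was at 7.52 and 7.69 in water and 5.65 and 5.44 in DMSO, and the muscle transcription factor *pat-9* fell too (difference -2.59, SE 0.26, adjusted p = 6.79e-04). On the other side were the myosin light chain *mlc-7*, from 1.54 and 1.96 to 6.31 and 6.06 (difference 4.43, SE 0.21, adjusted p = 3.45e-05), the troponin *tni-3* (difference 1.48, SE 0.21, adjusted p = 0.00247) and the calponin-related *cpn-1* and *cpn-4*. Without the first water array 3 of the 5 gains were called. In the pharynx list 9 of 20 genes were called lower and 3 higher. Of the 8 named in the table of DMSO against water 7 were called lower. Of the 12 named only in the other table, 2 were called lower and 3 higher. Most of the 20 are *pqn* genes, taken in by family name, and the 3 higher calls (*pqn-51*, *pqn-59* and *pqn-82*) were among them. These 3 calls turn on single arrays. With 1 water or DMSO array left out, the difference lay between 0.68 and 0.90 for *pqn-51* and between 0.58 and 0.69 for *pqn-59*. That of *pqn-82* was 0.72 without the first DMSO array. The pharynx genes that fell included the organ's selector gene *pha-4*, from 4.93 and 5.49 to 2.94 and 2.60, and the pharyngeal gland gene *phat-8*, from 5.31 and 5.12 to 2.82 and 2.09.

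Lipid, sulphur and solute genes were examined because the treatment is an organosulphur solvent. Of 28 fatty acid and lipid genes 12 fell and 6 rose. Fatty acid synthase *fasn-1* read 6.60 and 6.97 on the water arrays and 4.29 and 3.96 on the DMSO arrays (difference -2.66, SE 0.21, adjusted p = 2.59e-04). The desaturase *fat-5* read 7.50 and 7.56 in water and 6.16 and 6.20 in DMSO, the acyl-CoA synthetase *acs-2* 7.55 and 7.56 in water and 5.63 and 5.73 in DMSO, and the lipase *lips-10* 5.43 and 5.63 in water and 2.23 and 2.58 in DMSO. The gains were smaller, the clearest being the acyltransferase *acl-6* (difference 1.61, SE 0.25, adjusted p = 0.00365), and the number called higher fell to 3, 3, 1 and 2 without the first DMSO, second DMSO, first water and second water array, the number lower to 7 without the second DMSO array. Of 18 sulphur and methionine genes 5 fell and 2 rose. The gains were *mpst-1* and *gpx-8*, and none was called higher without the first DMSO or either water array, 1 without the second DMSO array, and 3 without either baicalein array, while the 5 falls were called each time. The thioredoxin *trx-3* fell from 7.35 and 7.57 to 2.84 and 3.11 (difference -4.48, SE 0.18, adjusted p = 2.21e-05), cystathionine gamma-lyase *cth-1* from 6.75 and 6.93 to 5.21 and 4.96, S-adenosylmethionine synthetase *sams-1* from 6.07 and 6.04 to 4.69 and 4.14, and methionine sulphoxide reductase *msra-1* from 7.33 and 7.65 to 5.92 and 6.13. In the list of 10 osmotic and glycerol genes the aquaporin *aqp-1* (difference -1.27, SE 0.18, adjusted p = 0.00254), the chloride channel *clh-1* (difference -1.98, SE 0.35, adjusted p = 0.00646) and *osm-7* (difference -2.23, SE 0.29, adjusted p = 0.00196) fell and *gck-2* rose (difference 0.92, SE 0.16, adjusted p = 0.00620). The adjusted p of *clh-1* was 0.0569 without the first DMSO array, and that of *gck-2* was 0.0587 without the first water array.

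Export pumps did not rise as a family, and the named families of detoxification enzymes were too small to read as families. None of 12 ABC transporters was called higher and 8 were called lower, among them the P-glycoprotein *pgp-9* at 3.43 and 3.79 in water and 1.22 and 1.86 in DMSO and the ABC transporter *haf-9* at 4.01 and 4.67 in water and 2.13 and 2.13 in DMSO (difference -2.21, SE 0.26, adjusted p = 0.00126). Of the 6 transporters named in the table of DMSO against water, which was selected on this comparison, 5 were called lower. Of the 6 named only in the other table, 3 were called lower. All named genes held 31.0% higher and 15.9% lower calls. Of 5 cytochrome P450 genes 2 rose and 1 fell (40% and 20%), and of 6 UDP-glucuronosyltransferases 2 rose and 1 fell (33.3% and 16.7%). Of 10 glutathione S-transferases 1 rose and 2 fell (10% and 20%). Most of these gains turn on single arrays. Those of *cyp-34A7* and *ugt-31* were lost without any one of the 4 arrays, with adjusted p between 0.0601 and 0.112 and between 0.0981 and 0.196. The adjusted p of *ugt-64* was 0.0541 without the first DMSO array and 0.0876 without the first water array, and that of *gst-20* was 0.107 without the first DMSO array, 0.0849 without the second DMSO array and 0.121 without the second water array. The number called lower was 1 among glutathione S-transferases without the second water array, and 2 among cytochrome P450 genes without the first water array and among UDP-glucuronosyltransferases without either baicalein array. The members were taken in by family name, which does not show that each acts on foreign compounds. *cyp-31A3* was at least 11.1-fold higher (1.63 and 1.23 in water and 5.22 and 4.76 in DMSO) and *cyp-35A2* fell (difference -1.28, SE 0.20, adjusted p = 0.00423). Of 19 heat shock and chaperone genes 8 rose, with the small heat shock protein *sip-1* at 4.79 and 3.52 in water and 7.58 and 7.43 in DMSO (difference 3.35, SE 0.39, adjusted p = 0.00114) and the J-domain gene *dnj-26* at 1.15 and 1.13 in water and 4.49 and 4.39 in DMSO. The endoplasmic reticulum genes *hsp-3* and *xbp-1* fell (difference -1.13, SE 0.17, adjusted p = 0.00322 and difference -1.05, SE 0.20, adjusted p = 0.00896), and the adjusted p of *xbp-1* was 0.0599 without the first DMSO array and 0.0715 without the second water array.

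Of the families with roles in host defence, the saposin-like proteins, which act on membranes, mostly rose. Of 10 named, 8 were called higher and 1 lower, with a median of 1.35, and all 8 gains were in genes named in the table of DMSO against water, which was selected on this comparison. Between 6 and 8 were called higher with 1 array left out, and the fall was lost without the first DMSO or either water array. Lysozyme *lys-7* was at 5.40 and 5.57 in water and 7.48 and 7.05 in DMSO (difference 1.77, SE 0.23, adjusted p = 0.00184), and the saposin-like *spp-2* and *spp-8* at 7.57 and 7.72 in water and 9.77 and 9.55 in DMSO and 4.97 and 4.87 in water and 7.24 and 7.36 in DMSO. *spp-1* was at 5.53 and 5.52 in water and 6.22 and 6.29 in DMSO, with a difference of 0.73 (SE 0.18, adjusted p = 0.0234) and adjusted p between 0.0837 and 0.129 when any one of the 4 arrays was left out. In all 4 genes both DMSO arrays exceeded both water arrays. Among 38 C-type lectins 10 rose and 4 fell, 26.3% and 10.5%, under the shares of all named genes (31.0% and 15.9%). Among the gains, *clec-87* was at 3.18 and 2.02 in water and 8.11 and 8.02 in DMSO (difference 5.46, SE 0.36, adjusted p = 1.15e-04) and *clec-88* at 1.45 and 0.69 in water and 4.99 and 4.72 in DMSO. *clec-82* and *clec-60* had the largest falls of the family, from 8.82 and 8.89 to 4.02 and 3.38 and from 9.67 and 9.71 to 5.50 and 5.41. The number called higher was 6 without the second DMSO array or without the second water array. Transthyretin-related genes, extracellular proteins of a large nematode family, gave 5 higher and 3 lower calls of 19. These shares were 26.3% and 15.8%, against 31.0% and 15.9% of all named genes. *ttr-42* was under the background in water (0.77 and 1.09) and at 7.23 and 6.77 in DMSO, and *ttr-27* fell from 4.98 and 5.10 to 2.25 and 1.91 (difference -2.96, SE 0.19, adjusted p = 1.03e-04). Without the first DMSO array 3 of the 5 gains were called, without the first water array 2 and without the second 3.

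Some of the largest differences belonged to genes outside the lists. *Y45F10C.2* was under the background in water, 0.40 and 0.34, and read 8.70 and 8.64 in DMSO, at least 143-fold higher. *ule-4*, a gene of the uterine lumen, was at 0.52 and 0.65 in water and 8.50 and 8.07 in DMSO, at least 109-fold higher. *C35B1.4* and *ZK813.7*, also under the background in water, were at least 204-fold and at least 137-fold higher, and *T12B5.15* differed by 7.32 (SE 0.17, adjusted p = 6.21e-06). In the other direction *dbd-13* went from 8.19 and 7.83 to 1.17 and 1.26 and *tag-297* from 7.97 and 8.21 to 1.95 and 2.49. A 5S ribosomal RNA gene, *rrn-4.4*, was among the largest falls, from 9.51 and 8.54 to 2.10 and 2.15 (difference -6.90, SE 0.34, adjusted p = 3.97e-05). The 5S RNA genes are near-identical repeats, so this probe set does not single out 1 copy.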

How the data were processed

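RNA (3.5 ng a sample) from 2 water, 2 DMSO and 2 baicalein samples was labelled with the GeneChip WT Pico kit and read on C. elegans Gene 1.1 ST arrays from Affymetrix. The methods state 3 independent samples a group, and trials 1 and 2 were analysed here. The deposited values are log2 RMA values per probe set, which the authors background corrected and quantile normalized in Expression Console. The arrays did not share one distribution as deposited, with upper quartiles of 3.23 and 3.26 in water, 3.00 and 2.78 in DMSO and 2.74 and 2.46 in baicalein, so the scaling bears on the balance of higher and lower calls. The number of arrays limits the precision. Depth has no meaning for arrays.

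All 29317 probe sets were fitted with limma 3.58.1 (R 4.3.3) over the 6 arrays, so that the baicalein arrays entered only the estimate of the spread, with Benjamini-Hochberg adjustment over all probe sets and a threshold of 0.05. The fit was tested on simulated data. Tables were handled in Python 3.11.15 with pandas 2.3.3 and numpy 2.4.6.

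Names came from the authors' 2 tables of selected entries (1982 for the solvent comparison and 3619 for the baicalein comparison), of which the fold change and p-value columns, the authors' own comparisons, were not used. Symbols were updated through RefSeq (WBcel235) where an accession or symbol matched, 4272 probe sets by accession and 620 by symbol, and 35 kept the name as written. Where several probe sets shared a gene, the brightest on average was used. No probe set coordinates were used.

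Named genes were the 15 with the largest difference in each direction, up to 5 of the smallest p per list and direction, and *lys-7*, *spp-1*, *spp-2* and *spp-8*. Members and lists were chosen with earlier results of these data known, and 5 list patterns were narrowed after the names were seen. Paralog pairs, chromosomes, gene families and members named with a difference alone (such as *lin-41* and *ptr-8*) were chosen after the values were seen. Alternatives were a variance trend, other normalizations, a filter on dim probe sets, the methods' analysis of variance, a replicate block, the 4 arrays alone, and leaving out each array.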

Additional observations from a re-analysis of the deposited data

How the results depend on the processing

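Of the 3183 higher and 4890 lower calls, the methods' analysis of variance with Benjamini-Hochberg adjustment gave 1549 and 2296, and 4344 and 5211 without adjustment, while limma at an unadjusted p under 0.05 gave 4956 and 6261. Leaving out 1 array gave between 1793 and 4219 higher and between 3230 and 5620 lower calls. The higher count was lowest without the first water array, at 1793, and was 1868 without the second, and the lower count was lowest without the second DMSO array, at 3230. The number of lists of 5 or more genes with over 50% of members called one way was 20, 10 under the analysis of variance, and between 12 and 21 with 1 array left out, with 13 without the first DMSO or the first water array and 12 without the second water array. With the arrays centred on their medians, the overall median difference was 0.20 in place of 0.09, and the share of calls that were higher was 47.1% in place of 39.4%, and cyclic loess and repeated quantile normalization moved the share to 48.0% and 48.1%. Of the 326 genes chosen for naming, 76 lost their call under the analysis of variance, between 3 and 15 under another scaling, filter, variance model or the block, and between 53 and 67 without 1 water or DMSO array, and none changed direction.

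Some list values changed sign with the table that supplied the names. In the table of DMSO against water alone, 1 eggshell gene (*cpg-7*) was at -2.89 and 1 small RNA gene (*alg-1*) at -1.87, and the median was -1.14 over 2 cell division genes and -1.33 over 2 genes of vulva and somatic gonad, so these values describe 1 or 2 genes. In the other table alone it was 0.45 over 22 cuticle collagens and -0.20 over 2 saposin-like genes. The cause was not tested.

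With the trial number as a replicate block 3115 probe sets were called higher and 4763 lower. The trials share only a number, since the deviations of same-numbered arrays correlated at r = -0.05 between water and DMSO, 0.16 between DMSO and baicalein and -0.07 between water and baicalein. Promoter motifs were not run, because no promoter sequences were used here. Of the higher calls 888 had a water mean under the background, and of the lower calls 2068 a DMSO mean under it, so that their folds are bounds.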

Other observations

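Further gene families, most of them outside the lists, were looked at after the values were seen, as descriptions with no test. Subunits of the general transcription machinery were mostly higher in DMSO. This held for 8 of 9 Mediator subunits (median difference 1.39), 6 of 9 TFIID subunits (1.65) and all 5 named subunits of the complex that activates small nuclear RNA genes. All of these subunits were named only in the table of baicalein against DMSO, where 39.0% of the probe sets were called higher. *taf-8* was at 2.73 and 2.75 in water and 5.17 and 5.33 in DMSO. All 5 named *bath* genes, which encode BTB and MATH domain proteins, were called higher. They are also members of the proteasome and ubiquitin list and were counted there. Both means of *bath-30* were under the background, 0.59 in water and 1.40 in DMSO.

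Glutamine synthetase genes differed among themselves, since *gln-5* was at 1.72 and 1.16 in water and 7.26 and 7.23 in DMSO and *gln-6* at 3.59 and 3.17 in water and 8.15 and 7.92 in DMSO, while *gln-3*, at 7.03 and 7.11 in water and 6.79 and 6.69 in DMSO, was not called. Of 5 named genes of the D1086 group, whose shared prefix marks a common cosmid, 4 were called higher, with *D1086.11* at 0.75 and 0.71 in water and 7.28 and 7.03 in DMSO. Of 8 claudin-like *clc* genes 4 were called lower, among them *clc-6* at 6.87 and 7.06 in water and 3.65 and 3.39 in DMSO, and none higher. Of 4 *dbd* genes 3 fell, *dbd-19* from 7.36 and 7.19 to 2.09 and 1.73. A further 5S ribosomal RNA probe set, *rrn-4.3*, read 5.30 and 3.62 in water and 1.08 and 1.55 in DMSO. Of 927 named probe sets of noncoding RNA genes 71 were called higher and 68 lower.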
